A study of Mus musculus with 44 samples.

Results

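In macrophages that lack the DNA methyltransferase Dnmt3a, the deposited NF-kB peaks fall into 3 classes by whether they were listed with lipopolysaccharide (LPS), without it, or both ways. The list from LPS-treated knockout (KO) cells held 2376 peaks and the list from untreated KO cells held 3065. These 5441 peaks are part of 15489 in 8 lists. A peak counted as shared when it overlapped a peak of the other list by at least 1 bp. On that rule 899 peaks were LPS-only and 1477 LPS peaks were shared (62.2%, 60.2 to 64.1%). Of the untreated peaks 1409 were shared (46.0%, 44.2 to 47.8%) and 1656 were untreated-only. LPS-only peaks lay within 10 kb of 8 of 39 NF-kB signalling and feedback genes and 7 of 17 acute-phase and antimicrobial genes, where 1.71% of all protein-coding genes had one. These gene lists were chosen with earlier results of these data known, so their shares are not independent evidence. No gene of either list had a shared peak (0 to 9.03% and 0 to 19.5%), and both intervals include the 2.45% of all protein-coding genes. Untreated-only peaks lay near 2 of the 39 genes (5.13%) and 1 of the 17 (5.88%), where 2.8% of all protein-coding genes had one. Of LPS-only peaks 54.5% were under 500 bp wide, against 40.2% of untreated-only and 14.1% of shared peaks. A wider peak meets the 1 bp rule more readily, so width and class are not independent.

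Both groups were macrophages grown from the bone marrow of C57BL/6 mice carrying the Dnmt3a KO genotype, with 10% serum and M-CSF at 30 ng/ml, for 8 to 10 days. The LPS group (3 samples) received 10 ng/ml LPS for 6 hours and the untreated group (3 samples) received none. Wild-type (WT) macrophages treated alike, and the same 4 conditions for the factor IRF3, serve only for comparison. The IRF3 groups were unequal, with 3 KO samples with LPS and 2 without, and 2 WT samples with LPS and 3 without. The 6 KO NF-kB samples are part of 44. The labels used here do not say how Dnmt3a was deleted, whether replicates came from separate animals, or which NF-kB subunit was precipitated. Each list merges the 3 samples of its group, so spread between replicates cannot be given and nothing was tested between lists. The ranges beside shares are exact 95% Clopper-Pearson intervals for counting error alone. Sequencing depth is unknown. Peak lists carry no expression, so neither the Dnmt3a deletion nor the cell type could be checked. Peaks near marker genes are given further on as a description.

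NF-kB is a family of dimeric transcription factors held in the cytoplasm by IkB proteins. Binding of LPS to Toll-like receptor 4 leads to degradation of IkB, and the freed dimers enter the nucleus and bind promoters and enhancers of inflammatory genes. Among their known targets are the genes for their own inhibitors, such as Nfkbia (IkBa) and Tnfaip3 (A20), which close a feedback loop. Dnmt3a is an enzyme that adds methyl groups to unmethylated cytosines in DNA.

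The peaks at promoters are shown first, because there the DNA under a peak can be read. Promoter sequences were those of RefSeq on GRCm38.p6, the assembly also named mm10, for windows from 250 bases before to 50 bases after each annotated start. LPS-only peaks overlapped 18 of 32851 windows (0.0548%), shared peaks 11 (0.0335%) and untreated-only peaks 5 (0.0152%). The 18 windows belonged to 17 genes, of which 11 are protein-coding: Sp110, Lcn2, B2m, Znrf1, Birc3, Tnfaip3, Irak3, Nlrp3, LOC115488002, Nfkbia and Lrmda. The protein-coding genes were Commd1 and Zrsr1 under a shared peak, and Pla2g4c and Elobl under untreated-only peaks. The 250 bases before the start are printed for Tnfaip3, B2m, Nlrp3 and Nfkbia, where the NF-kB consensus matched, and for Lcn2, where it did not. Capitals mark the match on either strand, and each run reads towards the gene's start.
Tnfaip3 (chr10:19015411-19015660, minus strand): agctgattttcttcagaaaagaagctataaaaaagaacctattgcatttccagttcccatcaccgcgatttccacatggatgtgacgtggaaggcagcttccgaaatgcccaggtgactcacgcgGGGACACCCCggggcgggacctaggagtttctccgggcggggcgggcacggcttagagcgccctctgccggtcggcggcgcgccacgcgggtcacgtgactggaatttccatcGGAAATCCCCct
B2m (chr2:122147437-122147686, plus strand): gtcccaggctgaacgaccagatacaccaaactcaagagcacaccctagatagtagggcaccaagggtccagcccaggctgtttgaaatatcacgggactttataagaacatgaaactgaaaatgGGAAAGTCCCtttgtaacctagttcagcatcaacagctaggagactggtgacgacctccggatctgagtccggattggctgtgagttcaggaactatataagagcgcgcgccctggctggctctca
Nlrp3 (chr11:59541319-59541568, plus strand): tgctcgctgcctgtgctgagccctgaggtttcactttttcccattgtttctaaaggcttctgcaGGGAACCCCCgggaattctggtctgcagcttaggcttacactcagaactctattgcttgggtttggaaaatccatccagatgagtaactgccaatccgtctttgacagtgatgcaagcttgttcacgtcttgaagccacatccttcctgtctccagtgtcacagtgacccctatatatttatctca
Nfkbia (chr12:55492648-55492897, minus strand): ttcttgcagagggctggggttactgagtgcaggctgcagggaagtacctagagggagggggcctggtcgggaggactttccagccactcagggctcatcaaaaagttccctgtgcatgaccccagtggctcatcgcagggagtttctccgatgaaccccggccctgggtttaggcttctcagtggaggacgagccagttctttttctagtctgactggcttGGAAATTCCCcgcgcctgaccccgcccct
Lcn2 (chr2:32387740-32387989, minus strand): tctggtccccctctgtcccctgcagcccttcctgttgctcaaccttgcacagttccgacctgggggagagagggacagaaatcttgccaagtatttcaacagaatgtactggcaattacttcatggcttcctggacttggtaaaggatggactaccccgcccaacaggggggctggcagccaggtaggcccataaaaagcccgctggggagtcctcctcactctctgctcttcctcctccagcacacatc

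Positions of matches count the annotated start as 0, with bases before it negative, and name the first base of the match. In Tnfaip3 the match GGGACACCCC began at -125 and GGAAATCCCC at -12, and the LPS-only peak chr10:19015334-19015705 covered the whole window. In B2m, which encodes the light chain of MHC class I, GGAAAGTCCC began at -126 under a peak of 144 bp. In Nlrp3, which encodes an inflammasome sensor, GGGAACCCCC began at -186 under the lower ranked of its adjoining peaks (125 bp, rank 1650, q-value 0.817) and outside the better ranked one (rank 653). In Nfkbia the match GGAAATTCCC began at -29, outside its peak, which covered -250 to -83 of the window. In Lrmda GGGGACCCCC began at -209 under the peak, and in the predicted gene Gm36634, which lies head to head with Nfkbia, GGAGAACCCC began at -28 outside it.

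The NF-kB consensus thus matched in 6 of the 18 windows with an LPS-only peak (33.3%, 13.3 to 59.0%) and in 4 (22.2%) when only bases under the peak were searched. It matched in 1 of 11 windows with a shared peak (9.09%, 0.23 to 41.3%), that of the predicted gene Gm36816, and in 0 of 5 windows with an untreated-only peak (0 to 52.2%). Among all windows it matched in 1480 (4.51%). Some of the 18 windows overlap each other, so they are not 18 independent stretches of DNA. The AP-1 motif TGANTCA and the PU.1 motif GAGGAAGT each matched in 3 of the 18 windows (16.7%, 3.58 to 41.4%), against 7.81 and 3.2% of all windows. The PU.1 matches in Gm32287 and Gm14321 are the same site, read from opposite strands of overlapping windows. The interferon-stimulated response element (3.44% of all windows) and the C/EBP motif TTGCNNAA (10.8%) each matched in 1. Of the 11 shared windows, AP-1 matched in 2 (18.2%), C/EBP in 3 (27.3%) and the other motifs of these 4 in none. In the 5 untreated-only windows none of the 4 matched. A match describes the letters only, and its absence says only that those letters are not in the window.

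Genes of innate immunity were then read from 13 lists with 321 matched genes, a gene counting as having a peak when one lay within 10 kb of its annotated span. The lists were chosen with earlier results of these data known, so their shares describe the lists and are no independent test. LPS-only peaks lay near 36 of the 321 (11.2%, 7.98 to 15.2%), where 1.71% of all 21887 protein-coding genes had one. Shared peaks lay near 7 (2.18%, background 2.45%) and untreated-only peaks near 6 (1.87%, background 2.8%). The 36 genes had 47 LPS-only peaks, of which 38 were under 500 bp (80.9%, 66.7 to 90.9%), with a median width of 260 bp. Of the 47, 10 had a deposited q-value under 0.05, and they lay near 11 of the genes, so most of these genes rest on peaks above that q-value. Within 1 kb of the gene the count was 23 for LPS-only peaks (1.15% of all protein-coding genes had one) and 5 for untreated-only peaks (2.07%). Within 50 kb it was 48 (4.07%) and 19 (6.27%).

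**Figure D1:**
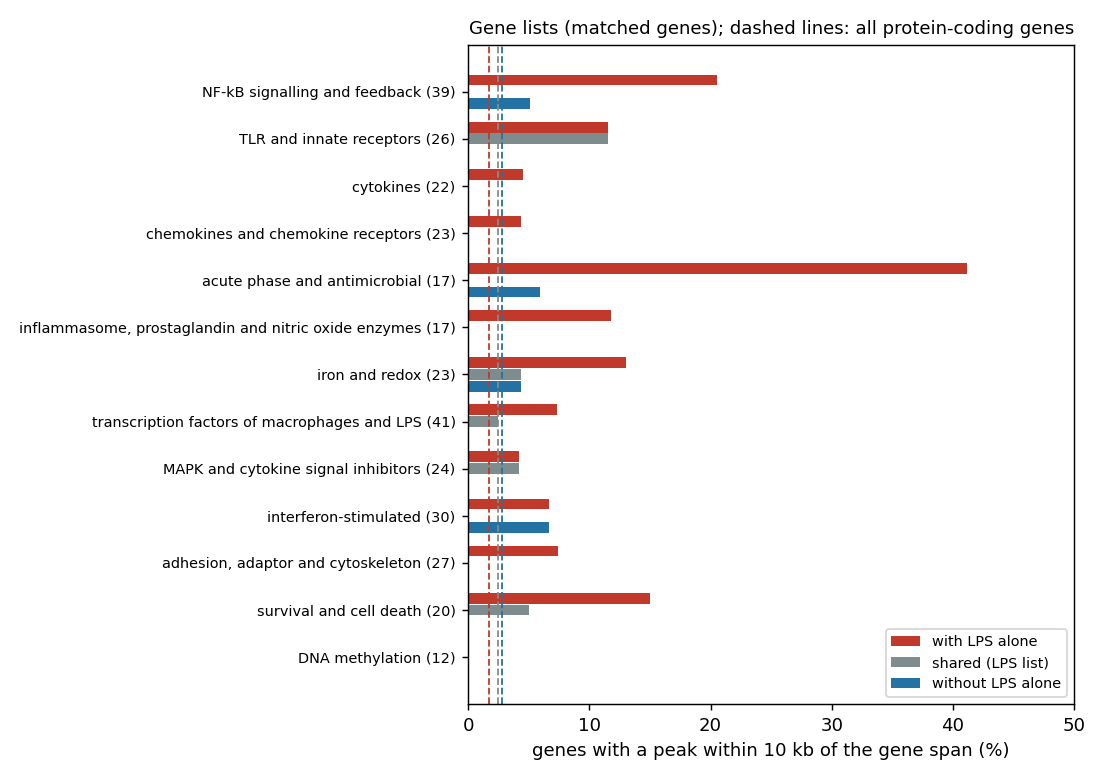
Share of each gene list with a KO NF-kB peak within 10 kb, in percent, for peaks listed with LPS alone, shared or listed without LPS alone, with the number of matched genes in brackets and dashed lines at the share of all protein-coding genes. The acute-phase list (7 of 17) and the NF-kB signalling list (8 of 39) have the highest LPS-only shares. The lists were chosen with earlier results of these data known.

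The NF-kB signalling and feedback list had LPS-only peaks near 8 of 39 genes (20.5%, 9.3 to 36.5%). It had shared peaks near none (0 to 9.03%) and untreated-only peaks near 2 (5.13%, 0.627 to 17.3%). Over all protein-coding genes the shares were 1.71, 2.45 and 2.8%, and the last 2 lie within the intervals of their classes. Several of the 8 genes with LPS-only peaks encode proteins known to restrain the pathway. At Tnfaip3, which encodes the ubiquitin-editing enzyme A20, a pair of adjoining peaks of 372 and 281 bp ran across the start, and the better ranked of them was number 53 of 2376. At Tnip1, which encodes the A20 partner ABIN1, adjoining peaks of 250 and 270 bp lay inside the gene, 26654 and 26394 bp from its start. Nfkbia had the lowest ranked peak of the 8 genes, number 2153 with a q-value of 0.912, though not the lowest deposited signal.

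Nuclear IkB proteins were also among the 8. Bcl3 had a peak of 146 bp inside the gene (rank 767), and Nfkbiz, which encodes IkBz, had one of 325 bp inside it (rank 965). Birc3, which encodes the ubiquitin ligase cIAP2, had a peak of 177 bp whose centre lay 96 bp downstream of the start (rank 601). Malt1, a paracaspase gene, had one of 208 bp at a distance of 344 bp (rank 133), and Zc3h12c, of the Regnase family of RNA-degrading enzymes, had one of 186 bp at 5952 bp (rank 850). The pathway genes with untreated-only peaks were the kinase genes Map3k7 (891 bp wide, rank 2728 of 3065) and Ripk2 (555 bp, rank 1570), both inside the gene.

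Receptors and their adaptors split between classes. LPS-only peaks lay near Fpr1 and Fpr2, receptors for formylated bacterial peptides, and at the start of Irak3, which encodes a kinase-like inhibitor of Toll-like receptor signalling. Shared peaks lay near Tlr2 (2648 bp wide), Nod1 (1643 bp) and Ly96, the co-receptor of Toll-like receptor 4 (352 bp). Each class thus held 3 of 26 (11.5%, 2.45 to 30.2%), and no gene of this list had an untreated-only peak. Over all protein-coding genes the shares were 1.71% for LPS-only, 2.45% for shared and 2.8% for untreated-only peaks.

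Among secreted effectors, acute-phase and antimicrobial genes had the highest share, 7 of 17 (41.2%, 18.4 to 67.1%), against 1.71% of all protein-coding genes. The peak at Lcn2, which encodes a protein that binds bacterial siderophores, covered 347 bp over the start (rank 301, q-value 0.083). The serum amyloid A cluster on chromosome 7 held the next ones: a peak of 158 bp, 2664 bp from Saa1 (rank 177, q-value 0.0343), and a peak of 527 bp at Saa3 (rank 1005). Those same peaks also count for Saa2 and Saa4, so 4 of the 7 genes rest on a pair of peaks, and Saa1 and Saa2 are close paralogs between which reads may be split. Ptx3, which encodes a soluble pattern-recognition protein, had a peak 6461 bp from the gene (979 bp wide, rank 1095), and Lyz1, a lysozyme gene, one at 9046 bp (rank 1264). The complement gene C3 had an untreated-only peak, 1 of the 17 (5.88%, 0.149 to 28.7%), where 2.8% of all protein-coding genes had one.

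Cytokine and chemokine genes were represented by 1 gene each, 4.55 and 4.35% of their lists against 1.71% of all protein-coding genes, and a single gene says little of a list this short. Il1b, the interleukin-1 beta gene, was the only one of 22 cytokine genes with an LPS-only peak, a pair of adjoining pieces of 239 and 202 bp starting 9545 bp from the gene. Cxcl16 was the only one of 23 chemokine and receptor genes, with a peak of 129 bp at 7988 bp. Neither list had a shared or an untreated-only peak within 10 kb (0 to 15.4% and 0 to 14.8%). Those intervals include the 2.45 and 2.8% of all protein-coding genes.

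Enzymes and metabolic genes followed. Nlrp3 had adjoining peaks of 142 and 125 bp just before its start, and Ptges, which encodes a prostaglandin E synthase, had 4 peaks within its annotated span, before the start used here. Sod2, the mitochondrial superoxide dismutase gene, had a peak of 284 bp centred 2374 bp after the start (rank 170). Fth1, which encodes the ferritin heavy chain, had the best ranked LPS-only peak of all, chr19:9974870-9975392, at 5208 bp from the gene with a deposited signal of 30.4 (rank 28). Slc7a11, a cystine transporter gene, had 1 peak of each class, all wider than 1 kb.

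Regulators outside the core pathway had single genes. Socs3, which encodes an inhibitor of JAK-STAT signalling, was 1 of 24 MAPK and cytokine signal inhibitors with LPS-only peaks and had 4 within 10 kb, while Dusp5, a MAP kinase phosphatase gene, had a shared peak. Of 41 transcription factor genes, Batf, Ets2 and Mitf had LPS-only peaks of 260, 178 and 268 bp, and Zeb1 a shared one. Their shares were 7.32% (1.54 to 19.9%) and 2.44%, against 1.71 and 2.45% of all protein-coding genes. The list named interferon-stimulated had 30 matched genes and also holds the kinase gene Tbk1. In it LPS-only peaks lay in Tbk1 and Trim30a and untreated-only peaks in Tbk1 and in Ddx58, which encodes the RNA sensor RIG-I. In this list both classes therefore had 2 genes (6.67%, 0.818 to 22.1%). Over all protein-coding genes the shares were 1.71% for LPS-only and 2.8% for untreated-only peaks.

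Adaptor and survival genes were Fyb (rank 48) and Sema4d (rank 124), of 27 adhesion and adaptor genes, and Bcl2a1a, Cdkn1a and Vmp1 of 20 survival genes. Bcl2a1a belongs to a family of near-identical copies, and its peak of 139 bp is uncertain. Cdkn1a, which encodes the cell-cycle inhibitor p21, lay near a shared peak of 3053 bp as well (rank 39), so its LPS-only peak of 835 bp sits beside a wide one. None of the 12 DNA methylation genes had a peak of any class within 10 kb (0 to 26.5%). That interval includes the background of LPS-only, shared and untreated-only peaks over all protein-coding genes (1.71, 2.45 and 2.8%).

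Markers of cell types were read the same way. Of 20 macrophage genes, Adgre1, which encodes F4/80, and B2m had LPS-only peaks (10.0%, 1.23 to 31.7%), Fcgr1 a shared one and Mertk an untreated-only one. That interval includes the 1.71% of all protein-coding genes, so these peaks do not settle the cell type. Of 51 markers of T cells, B cells, neutrophils, dendritic cells, erythroid and stromal cells, Zap70 had an LPS-only peak (1.96%, near the 1.71% of all protein-coding genes) and Lepr an untreated-only one.

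Several of these loci held more than 1 LPS-only peak. There were 16 runs of at least 3 LPS-only peaks with gaps of up to 50 kb, together 74 peaks. At Ptges 4 peaks of 171 to 345 bp spanned 16797 bp. Around Socs3 and Pgs1, 5 peaks of 140 to 446 bp spanned 33309 bp, the best at rank 172. Fpr1 and Fpr2 shared a run of 3 peaks over 29268 bp, the best at rank 101. The ferritin locus, Fth1 with Incenp, held 4 peaks over 47700 bp with ranks from 28 to 497. The drawn loci had no peak of the untreated KO list.

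**Figure D2:**
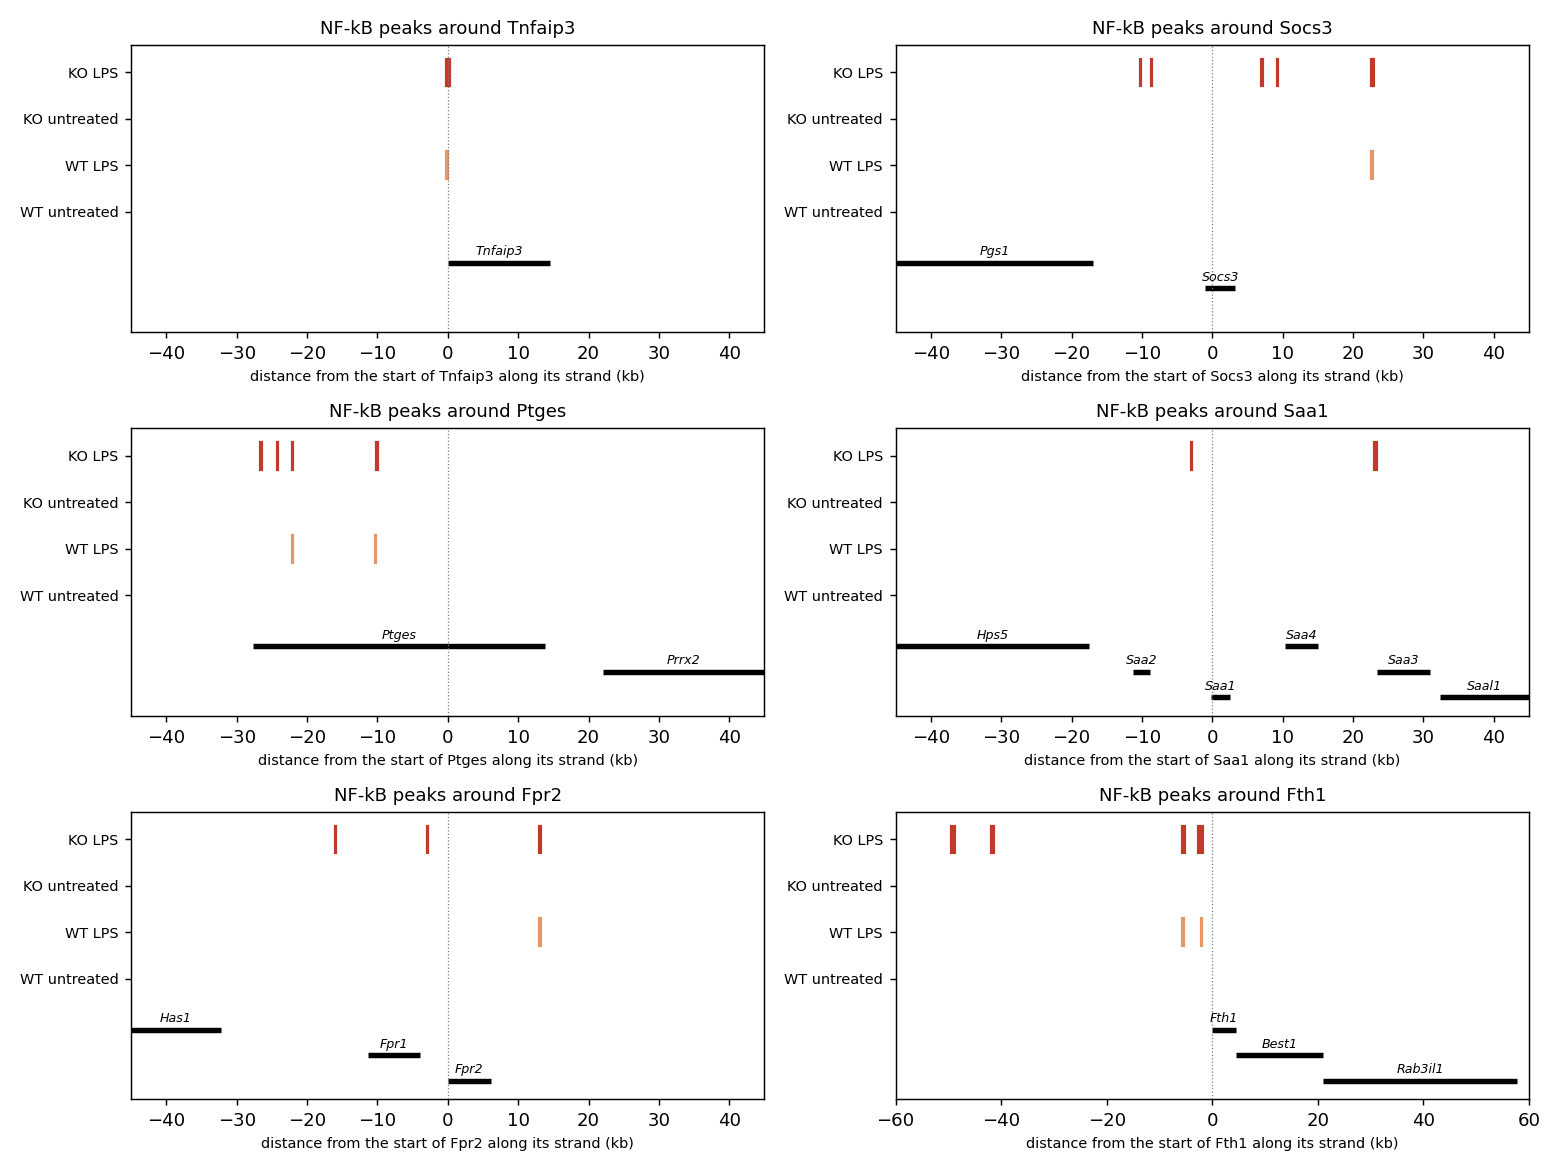
Deposited NF-kB peaks around 6 genes in the 4 NF-kB lists (KO and WT, with and without LPS), against distance in kb from the gene's start along its strand. Coloured bars are peaks, drawn with an outline that widens the narrowest, black bars are gene spans, and no peak of the untreated KO list falls in any of the drawn loci.

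Other runs held 3 or 4 peaks each near Tnfrsf8, a TNF receptor family gene, near Sp110, and near Brinp3 and Pla2g4a. The remaining runs lay near Gm2427 with Gm7592, Hnf4g, Gm31714 with Gm7762, Btbd35f29 with Spin2f, Cldn34c1, Asmt, Sfi1 and a pair of Speer gene clusters. The longest, at Sfi1, had 12 peaks over 55706 bp, and the Speer clusters had 7 and 9. The Sfi1 stretch also held 12 shared and 14 untreated-only peaks, and the Speer clusters 7 and 8 untreated-only ones. The Sp110 run also held 2 untreated-only peaks, of which 1 lay near a start of Sp110 and 1 near that of Sp140. The runs at Ptges, Socs3, the Fpr genes, Fth1, Tnfrsf8, Brinp3 and Gm31714 held no peak of either other class. Several of these regions hold near-identical gene copies, where the origin of reads is uncertain. Shared peaks formed 29 such runs (102 peaks) and untreated-only peaks 19 (98 peaks).

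Among the best ranked LPS-only peaks, the one near Fth1 was followed by a peak of 456 bp on chromosome 2 (rank 38), 86984 bp from Cebpb, the nearest protein-coding gene and the source of the C/EBPb transcription factor. That peak overlaps the promoter windows of the predicted genes Gm32287 and Gm14321. A further peak, 63590 bp from Cebpb, ranked 114. Fyb, Tnfaip3, Fpr2, Sema4d, Malt1, Tnip1, Sod2, Socs3, Saa1 and Vmp1 supplied 10 more of the first 15 that had a gene within 100 kb, and Fgd2 and Fam107a the last ones. Of those 15, 12 were also in the WT LPS list, none in the WT untreated list and none in either KO IRF3 list. Of all LPS-only peaks 30.6% were in the WT LPS list and 14.3% in the WT untreated list. The KO IRF3 lists with and without LPS held 17.7 and 13.7%. Among LPS-only peaks under 500 bp the same 4 shares were 20.8, 5.1, 5.71 and 3.67%.

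The best ranked peaks of the other classes had different neighbours. The first 10 shared peaks named by a gene lay near Vmn1r2, 9230019H11Rik, Gm39469, Tmem267, Vmn2r129, Gm15319, Cldn34d, Mdga2, Zfp825 and Gm21119, and all were in the WT NF-kB and KO IRF3 lists as well. Their widths ran from 419 to 7681 bp. Of all shared peaks 78.1% were in the WT LPS list, 55.4% in the WT untreated list and 65.7% in each KO IRF3 list. The first 10 untreated-only peaks lay near Tmem18, Cmc1, Actr3b, Olfm4, Dnah7c, Rdx, Smim43, Gm7982, Vmn1r58 and Gm21977, with widths from 379 to 3574 bp. Of these peaks 8 were in the WT LPS list, against 25.5% of all untreated-only peaks. None of these 20 genes is in the 13 lists.

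A larger share of LPS-only peaks lay near gene starts. Of the 878 that could be measured, 31 lay within 1 kb of a start (3.53%, 2.41 to 4.97%), against 18 of 1420 shared (1.27%, 0.753 to 2.0%) and 16 of 1603 untreated-only peaks (0.998%, 0.572 to 1.62%). Most of these LPS-only peaks were narrow: 26 peaks under 500 bp were near a start (5.43%, 3.58 to 7.85%), compared with 5 of the wider ones (1.25%) and 8 of the narrow untreated-only peaks (1.23%). Their protein-coding genes were the 11 with a promoter window under a peak plus Fpr1, Jak2, Gm52451 and Btbd35f21. No start was available on chromosome 18, so Malt1, with an LPS-only peak 344 bp from the gene, could not be counted. Gene spans held similar shares of each class, with 30.7% of LPS-only, 31.1% of shared and 31.5% of untreated-only peaks overlapping a gene span.

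The classes differed in width, which is not independent of the rule, since a wider peak meets a 1 bp overlap more readily. The median was 419 bp for LPS-only, 1265 bp for shared and 620.5 bp for untreated-only peaks. Peaks under 500 bp made up 54.5% of the LPS-only class (51.2 to 57.8%), 14.1% of the shared (12.3 to 16.0%) and 40.2% of the untreated-only class (37.8 to 42.6%). Where 1 LPS peak met 1 untreated peak (1202 pairs), the LPS peak was narrower in 784 and wider in 415. Their median width ratio was 0.952 (middle range 0.807 to 1.04), and their centres lay a median of 81.5 bp apart. The chromatin had been sheared to between 100 and 300 bp.

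**Figure D3:**
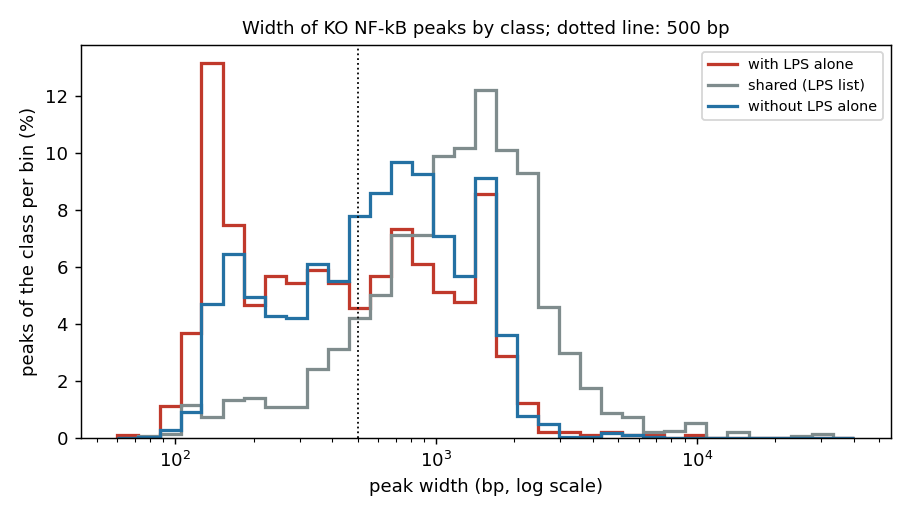
Distribution of peak widths in bp (log axis) for KO NF-kB peaks listed with LPS alone, shared or listed without LPS alone, as the percent of each class per bin. Those with LPS alone have the lowest median (419 bp) and shared peaks the highest (1265 bp), and the dotted line marks 500 bp.

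The share of peaks with a counterpart varied with rank. Peaks were ranked by their deposited p-value within a list. Of the first 100 LPS peaks 6 were LPS-only (6.0%, 2.23 to 12.6%), of ranks 501 to 1000 30.6% were, and of ranks 2001 to 2376 55.6% were (50.4 to 60.7%). In the untreated list 0 of the first 100 peaks had no LPS counterpart (0 to 3.62%), compared with 81.4% of the last 565. Both classes therefore consist mostly of low-ranked peaks, and 21 LPS-only (2.34%) and 18 untreated-only peaks (1.09%) had a q-value under 0.05, against 206 shared LPS peaks (13.9%). LPS-only peaks were under 500 bp in 4 of 6 cases among ranks 1 to 100 and in 14 of 15 among ranks 101 to 250. Of the 698 LPS peaks under 500 bp, 208 were shared with the whole untreated list (29.8%, 26.4 to 33.3%), and 7.31% were when the untreated list was also limited to peaks under 500 bp, which removes wide counterparts.

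**Figure D4:**
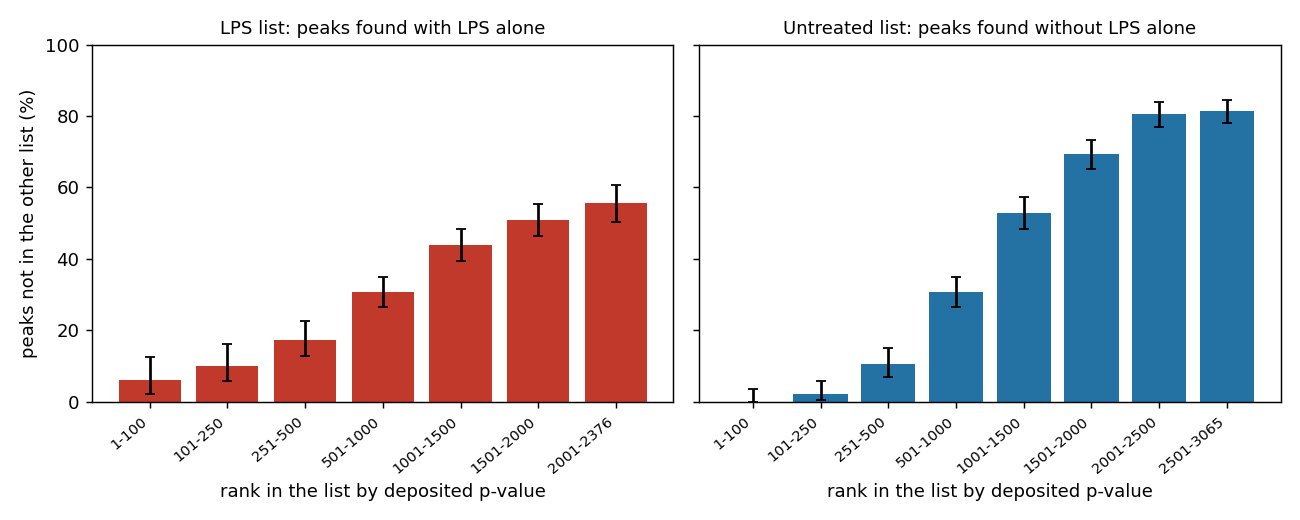
Share of peaks without a counterpart in the other KO NF-kB list, in percent, by rank within the LPS list and within the untreated list, with exact 95% intervals. Both shares climb with rank number, from 6.0 to 55.6% in the LPS list and from 0 to 81.4% in the untreated list.

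At the edge of the overlap rule, the smallest overlap counted as shared was 2 bp, for the LPS peak chr2:3079801-3080178 nearest Fam171a1. The smallest gap counted as LPS-only was 26 bp, for chr9:33951170-33951347 nearest Kirrel3. Of the 899 LPS-only peaks, 41 had an untreated peak within 1 kb and 9 adjoined a shared LPS peak. By chromosome the LPS-only share of LPS peaks ran from 26.9% on chromosome 18 to 51.3% on chromosome 19, with 39 LPS peaks on the latter.

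LPS-only peaks overlapped the WT LPS list in 30.6% of cases (27.6 to 33.7%) and the WT untreated list in 14.3% (12.1 to 16.8%). For shared peaks the values were 78.1 and 55.4%, and for untreated-only peaks 25.5 and 12.4%. Untreated-only peaks were thus also found more in the WT LPS list, which is the longer of the WT lists with 2494 peaks against 1462. Among narrow peaks, 20.8% of the LPS-only (17.3 to 24.7%) and 11.7% of the untreated-only class (9.37 to 14.4%) were in the WT LPS list. The KO IRF3 list with LPS held 17.7% of LPS-only, 65.7% of shared and 17.9% of untreated-only peaks. No other list held 49.4% of LPS-only, 7.58% of shared and 50.9% of untreated-only peaks.

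**Figure D5:**
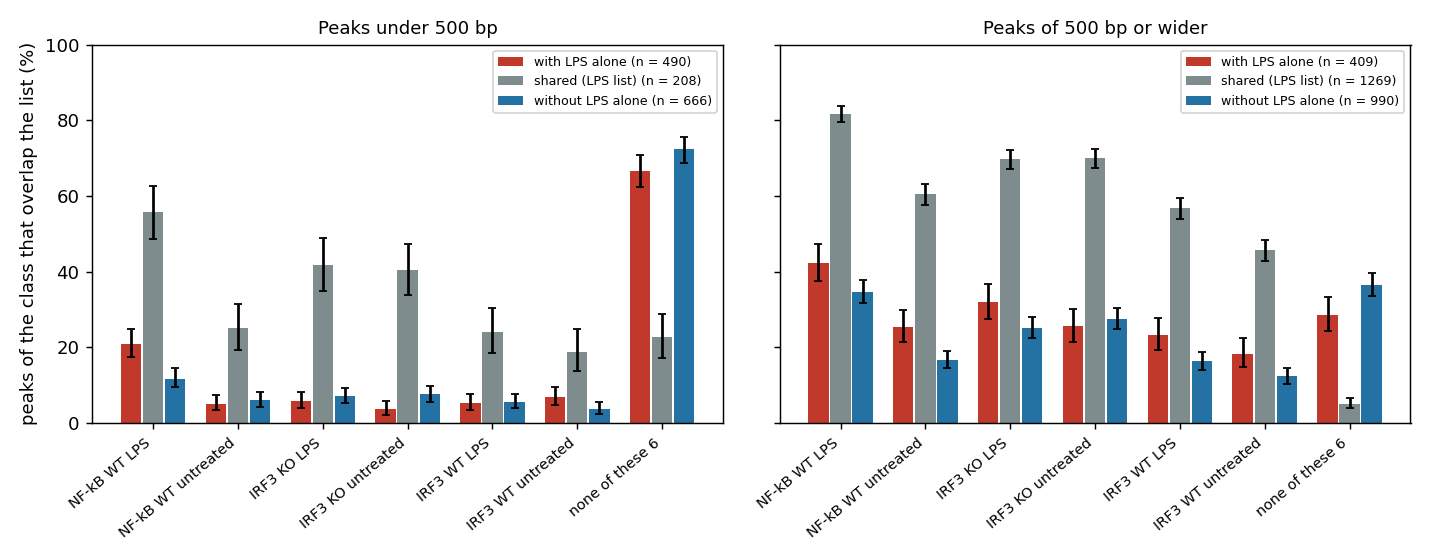
Share of KO NF-kB peaks of each class that overlap each other list or none of them, in percent, with exact 95% intervals, for peaks under 500 bp and wider ones. Shared peaks have the highest overlap with each list in both panels, for example 55.8% with the WT LPS list among narrow peaks against 20.8% for those with LPS alone.

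Of the 47 LPS-only peaks near genes of the 13 lists, 20 overlapped the WT LPS list (42.6%, 28.3 to 57.8%), 0 overlapped the WT untreated list (0 to 7.55%) and 2 the KO IRF3 list with LPS. The first interval includes the 30.6% of all LPS-only peaks. Most of the 47 were under 500 bp. Of all LPS-only peaks that narrow, 5.1% were in the WT untreated list and 5.71% in the KO IRF3 list with LPS. None of the 7 untreated-only peaks near list genes was in a WT NF-kB list, whereas 6 of the 8 shared ones were in the WT LPS list. Of all untreated-only peaks 25.5% were in the WT LPS list and 12.4% in the WT untreated list. Of all shared peaks 78.1% were in the WT LPS list. Divided by the same rule, the WT lists gave 1546 LPS-only peaks, near 19 of the 321 genes (5.92%, 3.6 to 9.09%, where 2.63% of all protein-coding genes had one). The genes common to both genotypes numbered 16, which is 44.4% of the KO and 84.2% of the WT genes: Batf, Bcl3, Cxcl16, Ets2, Fpr2, Fth1, Fyb, Irak3, Malt1, Nlrp3, Ptges, Ptx3, Sod2, Tnfaip3, Tnip1 and Zc3h12c. Over all protein-coding genes, 375 had an LPS-only peak within 10 kb in KO and 575 in WT. How many of those were common was not counted, so the overlap of list genes has no background to be set against. Nod1, Otulin and Zeb1 had an LPS-only peak in WT alone, and in KO Nod1 and Zeb1 had a shared peak instead. In KO alone 20 genes had an LPS-only peak within 10 kb, including Birc3, Il1b, Lcn2, Nfkbia, Nfkbiz, Saa1 to Saa4 and Socs3. Of the peaks near these named genes, only the one counted for Saa1 and Saa2 had a q-value under 0.05 (0.0343). The 20 also include Cdkn1a and Slc7a11, which had a shared peak in WT. At Socs3 the WT LPS list holds a peak that overlaps the best ranked KO peak of the locus, 19297 bp from the gene and so beyond that distance. The difference between the genotypes was not tested, because each list merges its replicates.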

How the data were processed

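The members and gene lists were chosen with earlier results of these data known. Per the labels, the replicates of each group (3 in each NF-kB group, 2 or 3 in the IRF3 groups) point to 1 deposited list. The build is mm10 and MACS2 2.1.1 and HOMER 4.9 are among the tools, per the submitters' processing notes, which give no role for either. Aligner, calling threshold, read depth and merging of replicates are not stated there. List names hold the word chipr, so the deposited values may describe a combination of replicates rather than enrichment over input. The authors deposited a signal for each peak, a score whose normalization is not stated, and a p-value and q-value. Peaks were ranked within each list by the deposited p-value. The main counts used no q-value filter, which was applied only as an alternative setting.

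Gene spans and starts came from RefSeq tables of GRCm38.p6. Of 393 listed symbols, 389 matched. No start was available here on chromosome 18. Some genes elsewhere had none under the name used, among them Ly96, Ripk2, Cxcl16, Nfkbiz and Adgre1, so a peak at their start could not be counted. Named genes are those nearest the 15 best ranked LPS-only and the 10 best ranked shared and untreated-only peaks (within 100 kb), list genes with a peak, protein-coding genes with an LPS-only peak within 1 kb of a start, and runs of LPS-only peaks. Motifs were searched in promoter windows only, since no genome sequence was used here. Counting was tested on simulated data with Python 3.11.15, pandas 2.3.3, numpy 2.4.6 and scipy 1.17.1. Alternatives changed the overlap, the q-value, width and length filters and the distance to genes.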

Additional observations from a re-analysis of the deposited data

How the results depend on the processing

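The share of LPS peaks that were shared (62.2%) was 50.9% when 50% of both peaks had to overlap, 57.7% at equal list length and 55.1% without regions that all 8 lists hold. It was 75.8% for peaks with a q-value under 0.05 in both lists, 90.7% for such LPS peaks against the whole untreated list, and 7.31% for peaks under 500 bp in both lists. LPS-only peaks numbered 55 with the q-value filter in both lists and 21 with it in the LPS list, which test fewer peaks. Untreated-only peaks numbered 250 with that filter in both lists, 1097 at equal list length and 723 for narrow peaks. List genes with an LPS-only peak numbered 11 with either q-value filter and 23 within 1 kb. The other settings moved these counts by less than 1.5 times, including adjoining peaks joined, which was chosen after seeing the data (844 LPS-only peaks, 36 list genes). List genes with an LPS-only peak outnumbered those with an untreated-only peak in each of the settings where both were counted. The counts ran from 11 against 2 with the q-value filter to 48 against 19 within 50 kb. Over all protein-coding genes untreated-only peaks were the more frequent at each of the 3 distances, and at the other settings that share was not counted. The lists were chosen with earlier results of these data known, so these settings add no independent evidence. No paired analysis was possible because each list merges its group's replicates, and for the same reason none was left out. The planned motif search in whole peaks was not run. A peak missing from a list may have been below the depth or threshold of that list, neither of which is known.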

Other observations

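Regions held by all 8 lists supplied 387 of the LPS peaks (16.3%), of which 6 were LPS-only, and 368 of the 3065 untreated peaks, of which 4 were untreated-only. Genes of the Speer family, chosen after their values were seen, were nearest to 8 LPS-only peaks (0.89%, 0.385 to 1.75%), 3 shared peaks (0.203%) and 8 untreated-only peaks (0.483%), while the family makes up 0.0457% of protein-coding genes. Olfactory receptor genes, 5.07% of protein-coding genes, were nearest to 2.67, 1.56 and 1.81% of the same classes. These are families of similar copies, in which the placement of reads is uncertain.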
